A study of Homo sapiens with 6 samples.

Results

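The collagen gene family was described in MCF12A, a line of human breast epithelium, with stable over-expression of miR-424 or with an empty vector (EV) in its place. The family was taken as 43 named collagen genes, and all 43 were found among the 24294 loci of the deposited expression table by gene symbol, with the row of highest mean used where a symbol was repeated. The groups were EV cells and cells over-expressing miR-424, with 3 libraries each, and all 6 libraries came from cells grown for 48 hours. MCF12A is labelled as breast cancer cells, although the line is known to derive from non-malignant tissue. The labels state that cells were grown in triplicate and give neither the number of independently derived lines nor whether a line was 1 clone, so the p-values measure the spread between these cultures. Levels are given as FPKM, a measure of sequenced fragments corrected for the length of the transcript and the size of the library, so that genes of different length can be set side by side.

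Collagens are proteins of the extracellular matrix in which 3 chains wind into a triple helix of repeated glycine-led triplets. Fibrillar collagens form the banded fibres of connective tissue, collagen IV forms the sheet of the basement membrane on which epithelial cells sit, collagen VI forms beaded filaments, and fibril-associated collagens decorate the surface of fibres. In the mammary gland, fibroblasts make most fibrillar collagen, while myoepithelial and other basal cells contribute to the basement membrane and to its anchorage. MicroRNAs pair through a short seed at their 5′ end with sites in the 3′ untranslated regions (UTRs) of messenger RNAs and lower the level or translation of the target.

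The sequence that the construct adds is shown first, because the comparison asks how collagen transcripts differ when it is over-expressed. The mature 5′ arm (RefSeq, GRCh38.p14, minus strand, chrX:134546680-134546701) has its seed, bases 2 to 8, in capitals.
hsa-miR-424-5p: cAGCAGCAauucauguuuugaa
In the longest annotated 3′ UTR of each of the 15 collagens with a mean of at least 1 FPKM (GENCODE 29), the reverse complement of bases 2 to 8, TGCTGCT, or of bases 2 to 7 followed by A, GCTGCTA, occurred only in COL4A1 and COL12A1. A match from each gene, capitals marking the matched letters, is shown because both genes were higher in miR-424 cells.
COL4A1: ttactgcacaaGCTGCTAataaatttgta
COL12A1: taagtcgccagTGCTGCTtacagtttgaa
Such a match was present in 27.5% of the 10672 tested loci that had a 3′ UTR of at least 30 nt. A match describes the letters of the UTR and does not show binding.

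The locus that hosts the construct's miRNA separated the groups. The host locus MGC16121/MIR424 was at 0.989, 1.27 and 1.23 FPKM in EV replicates 1, 2 and 3 and at 107, 106 and 224 FPKM in miR-424 replicates 1, 2 and 3. The last of these libraries stood apart. Over the 11574 loci whose mean reached 1 FPKM, the median absolute difference on log2(FPKM + 1) was 0.0357 to 0.0417 between EV libraries and 0.0408 between miR-424 replicates 1 and 2, but 0.142 and 0.152 between replicate 3 and these. Replicate 3 lay apart from the mean of replicates 1 and 2 by a median of -0.0896 over all these loci and of -0.181 over the 15 collagens, in 13 of which it was the lower. Against EV, replicates 1 and 2 also trended on GC content (medians 0.0675 and 0.0835 up to 40% GC, -0.0918 and -0.12 over 60%), and replicate 3 did the reverse (-0.216 and -0.0508). The longest annotated transcripts of the 15 collagens held 46.3% to 66.8% GC, with a median of 61.1%, against 48.5% for all tested loci. The part of this library and of GC content in the collagen results was not tested beyond the values without the library, without the trend, or both, given beside them.

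The family was carried by few genes. Over all 6 libraries 10 collagens had a mean of at least 10 FPKM, another 5 of 1 to 10 FPKM, 10 of 0.1 to 1 FPKM and 16 lay above 0 and under 0.1 FPKM, while COL6A5 and COL19A1 were listed at 0 in all 6 libraries. COL4A2, a chain of basement membrane collagen, was the most abundant in EV cells (86.0 ± 2.86 FPKM, SD, n = 3) and ranked 817 of 24294 loci. It was followed by COL5A1 (72.0 ± 2.50 FPKM), a fibrillar chain, by COL12A1 (43.5 ± 0.757 FPKM), a fibril-associated chain, and by COL1A1 (39.05 ± 1.49 FPKM) and COL4A1 (37.99 ± 1.45 FPKM), whose values overlapped each other. These 5 genes made up 70.2% of the summed collagen FPKM in EV cells. COL6A2 (25.5 ± 1.03 FPKM) and COL6A1 (25.05 ± 0.789 FPKM) were close. COL6A1 was at 0.971, 0.986 and 0.987 of COL6A2 in EV replicates 1, 2 and 3. COL4A5 (11.04 ± 0.264 FPKM) and COL4A6 (10.8 ± 0.277 FPKM) were also close, with COL4A5 at 1.055, 0.979 and 1.025 of COL4A6 in the same order. COL18A1 (18.3 ± 0.505 FPKM) and COL7A1 (16.8 ± 0.647 FPKM) lay between these pairs. The 15 genes with a mean of at least 1 FPKM held 99% of the sum. Just inside that minimum were COL6A3 (1.11), COL16A1 (1.12) and COL27A1 (1.34), and just outside it COL3A1 (0.590), COL5A2 (0.550) and COL17A1 (0.483), as means of FPKM over 6 libraries.

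**Figure D1:**
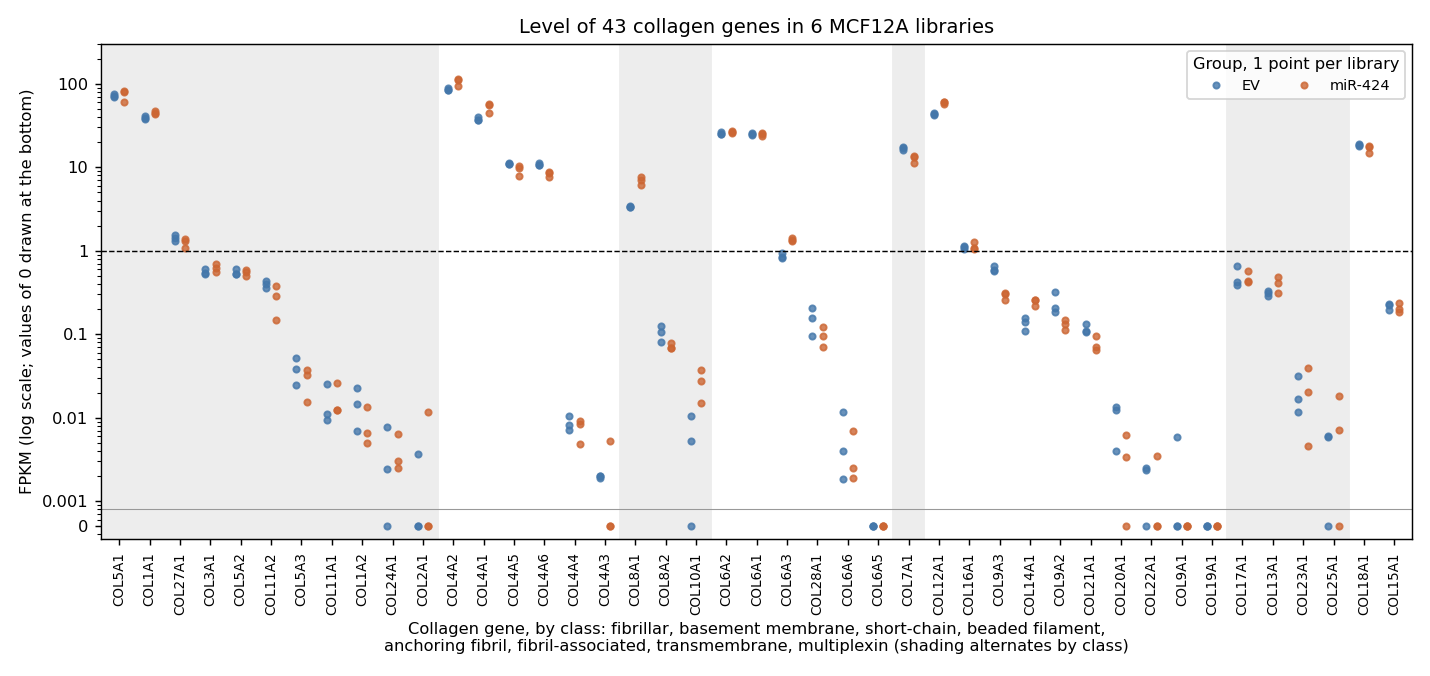
FPKM of each of 43 collagen genes in 3 EV and 3 miR-424 libraries on a log axis, 1 point per library, with genes ordered by class and values of 0 drawn at the bottom. The dashed line marks 1 FPKM, the minimum for testing, and 15 genes lie above it on average.

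The partner chains of several collagen types were far from equal. Collagen I is usually built of COL1A1 and COL1A2 chains. COL1A1 was at 37.9 to 40.7 FPKM in EV libraries while COL1A2 was at 0.00697 to 0.0226 FPKM, and in miR-424 libraries COL1A2 lay between 0.00497 and 0.0135 FPKM. Collagen V showed the same kind of imbalance, with 131 ± 4.88 times as much COL5A1 as COL5A2 in EV cells and 135 ± 13.2 times in miR-424 cells (SD, n = 3). In collagen VI, COL6A1 and COL6A2 were near equal (ratio 0.981 ± 0.00887 in EV cells), and the third chain, COL6A3, was at 0.0345 ± 0.00313 of COL6A1. COL3A1, which forms fibres together with collagen I, was at 0.522 to 0.689 FPKM over the 6 libraries. COL2A1, the fibrillar collagen of cartilage, did not exceed 0.0118 FPKM. The sources used here give no fragment counts, so no detection limit can be set for these low values.

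Of the 15 tested collagens, 5 were called higher with miR-424 and 2 lower (limma on log2(FPKM + 1), with p adjusted by the Benjamini-Hochberg method, BH, over all tested loci and a threshold of 0.05). Over all 11574 tested loci, 1.24% were called higher and 6.32% lower, 7.56% in all. COL8A1, COL12A1, COL4A1, COL6A3 and COL1A1 rose, and COL7A1 and COL4A6 fell. The groups did not overlap for 6 collagens that were higher and 3 that were lower, against 6.59% and 26.9% of all tested loci, 33.5% in all. The median log2 change was 0.03 over the tested collagens and -0.05 over all tested loci. COL6A3 reached the minimum for testing only through the miR-424 libraries, since its EV mean was under 1 FPKM, so its presence among the tested genes and its direction are not independent. Without miR-424 replicate 3, 7 of the 15 collagens were higher and 3 lower, where 14.9% and 22.2% of all tested loci were. Without any 1 of the EV libraries 2 were higher and 0 lower, where 0.268% to 0.302% and 0.665% to 0.726% of all tested loci were. Without miR-424 replicate 1 the counts were 3 and 0 (0.544% and 2.42% of all tested loci), and without miR-424 replicate 2 they were 3 and 1 (0.717% and 3.15%). At an unadjusted p under 0.05, the counts of lower collagens without these 4 libraries (EV replicates 1, 2 and 3 and miR-424 replicate 1, limma) were 2, 2, 2 and 2, where 12.8%, 13%, 13.4% and 17.3% of all tested loci were lower.

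**Figure D2:**
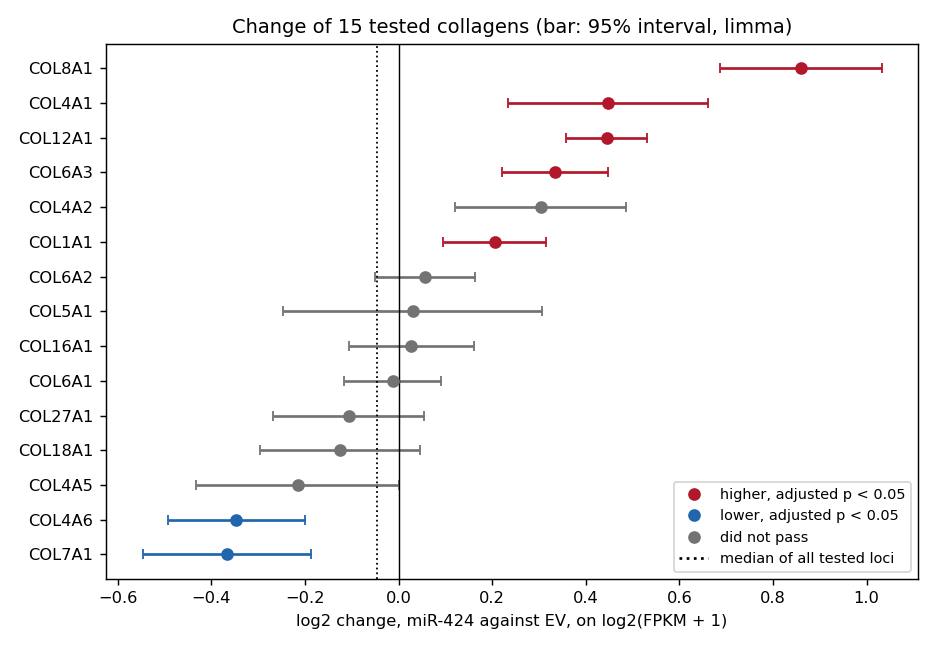
Log2 change of the 15 tested collagens in miR-424 against EV cells on log2(FPKM + 1), with 95% intervals from limma and the median of all tested loci as a dotted line. COL8A1, at 0.86, lies farthest from 0, while COL7A1, at -0.37, and COL4A6, at -0.35, lie lowest.

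COL8A1, a short-chain collagen that forms hexagonal lattices in subendothelial and other matrices, had the largest change of the tested collagens. It was at 3.44, 3.37 and 3.35 FPKM in EV replicates 1, 2 and 3 and at 7.70, 7.05 and 6.19 FPKM in miR-424 replicates 1, 2 and 3. Each miR-424 library therefore lay well above every EV library, and the EV libraries were nearly equal. The mean was 2.06 times that of EV cells (log2 change 0.86 ± 0.07, SE; limma BH adjusted p = 0.00261). COL8A1 passed in all 15 alternative settings, with log2 changes of 0.80 to 1.02 and adjusted p of 4.52e-05 to 0.0297. Its row (chr3:99273152-99897476, hg19) has the same listed interval as C3orf26, which was at 63.5 ± 1.11 in EV and 60.7 ± 3.74 FPKM with miR-424 (log2 change -0.06, limma BH adjusted p = 0.523). COL8A2, its partner, was at 0.0804 to 0.127 in EV and 0.0690 to 0.0794 FPKM with miR-424, and COL10A1, the collagen of growth plate cartilage, did not exceed 0.0375 FPKM.

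COL12A1, which links collagen I fibres to other matrix, was the other collagen that passed in all 15 alternatives. Its levels were 43.2, 42.9 and 44.3 FPKM in EV replicates 1, 2 and 3 and 59.99, 60.5 and 58.1 FPKM in miR-424 replicates 1, 2 and 3 (chr6:75794041-75915623, hg19). The 3 miR-424 libraries, replicate 3 included, lay close together and apart from EV. The log2 change was 0.44 ± 0.04 (SE; limma BH adjusted p = 0.00235), a mean 1.37 times as high. Its 3′ UTR carries a seed match, as shown above. Of the other fibril-associated collagens only COL16A1 was tested, at 1.05 to 1.15 in EV and 1.05 to 1.29 FPKM in miR-424 libraries, and it did not pass (log2 change 0.03, 95% interval -0.11 to 0.16).

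The 2 abundant chain pairs of basement membrane collagen IV lay on opposite sides of EV. COL4A1 and COL4A2, the chains of the common network, were higher in miR-424 libraries, and COL4A5 and COL4A6, the chains of a second network found in selected basement membranes, were lower. COL4A1 was at 39.7, 37.2 and 37.1 FPKM in EV replicates 1, 2 and 3 and at 56.6, 55.7 and 45.0 FPKM in miR-424 replicates 1, 2 and 3. COL4A2 was at 89.3, 84.3 and 84.4 FPKM and at 115, 111 and 94.3 FPKM in the same order. For both genes the groups did not overlap, and miR-424 replicate 3 lay between the EV libraries and the other 2 miR-424 libraries. COL4A1 rose (log2 change 0.45 ± 0.09, SE; limma BH adjusted p = 0.0317), and COL4A2, with a change of 0.30 ± 0.08, did not pass (adjusted p = 0.0620). COL4A2 passed with median-of-ratios scaling, quantile normalization, the GC trend removed and without miR-424 replicate 3 (limma BH adjusted p = 0.0141, 0.0284, 0.0277 and 0.000264, in a range of 6.66e-05 to 0.226). COL4A1 did not pass without EV replicate 1, 2 or 3 or without miR-424 replicate 1 or 2 (limma BH adjusted p = 0.114, 0.137, 0.142, 0.0958 and 0.0930), nor without the filter on low values (0.0549), in a range of 6.66e-05 to 0.142.

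The other pair lies on the X chromosome. COL4A6 was at 10.8, 11.1 and 10.6 FPKM in EV replicates 1, 2 and 3 and at 8.59, 8.82 and 7.56 FPKM in miR-424 replicates 1, 2 and 3. COL4A5 was at 11.3, 10.9 and 10.9 FPKM and at 9.93, 10.4 and 7.95 FPKM. All miR-424 libraries lay below all EV libraries for both genes, by the least for COL4A5. COL4A6 fell (log2 change -0.35 ± 0.06, SE; limma BH adjusted p = 0.0225), and COL4A5 did not pass (log2 change -0.22, 95% interval -0.43 to 0.002; adjusted p = 0.215). COL4A5 passed in 1 of 15 alternatives, without miR-424 replicate 3, where its change was -0.11 (limma BH adjusted p = 0.0386, in a range of 0.0386 to 0.487). COL4A6 did not pass without EV replicate 1, 2 or 3 or without miR-424 replicate 1 (limma BH adjusted p = 0.110, 0.116, 0.101 and 0.0632, in a range of 0.00101 to 0.116). COL4A3 and COL4A4, the remaining pair, known from kidney and lung, did not exceed 0.0105 FPKM.

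**Figure D3:**
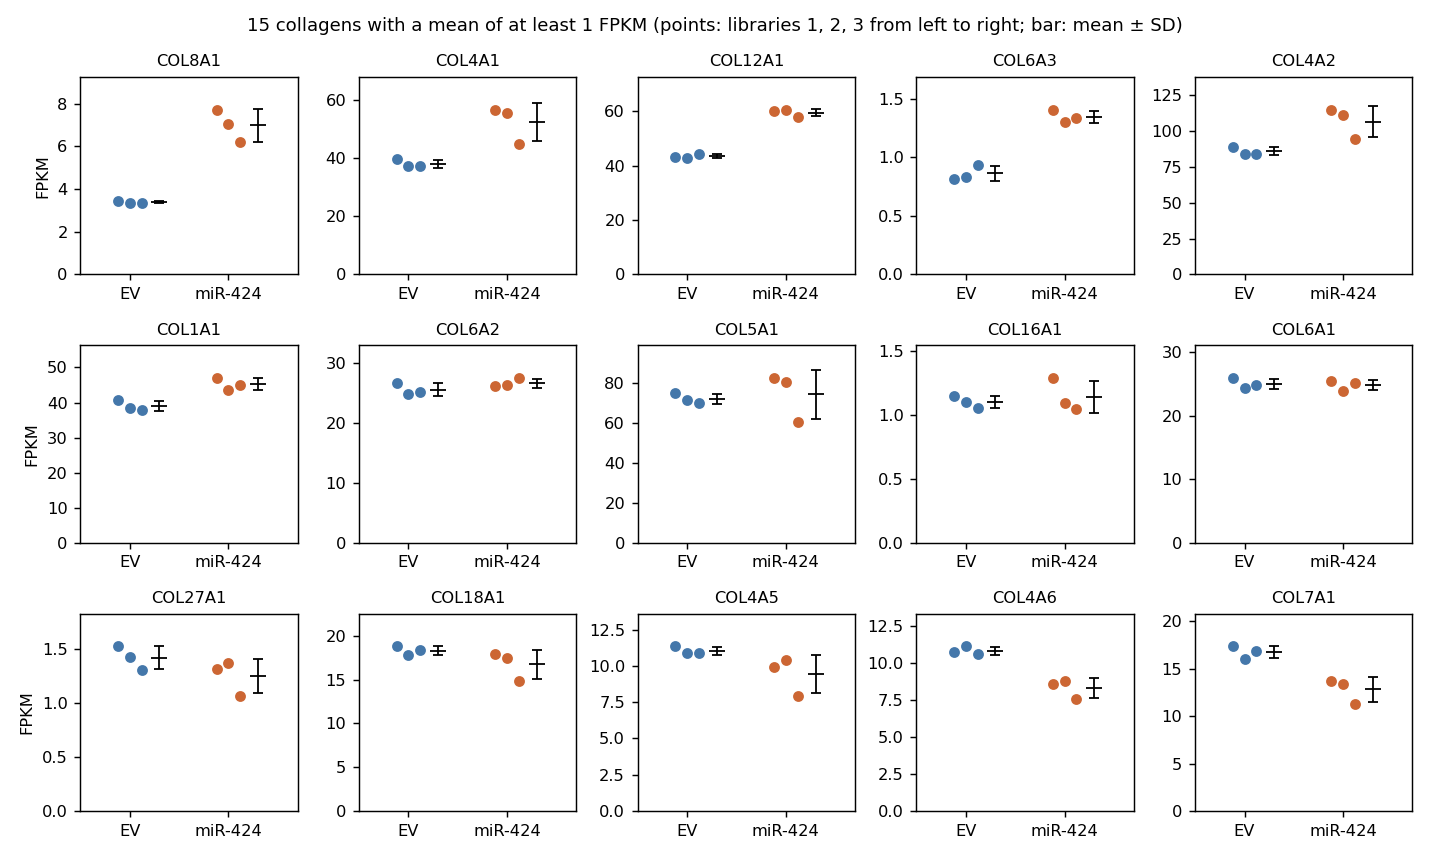
FPKM of the 15 tested collagens, 1 panel each, in EV and miR-424 libraries (points, replicates 1 to 3 from left to right; bars, mean ± SD). COL8A1 and COL12A1 show the clearest separation. In these panels and those of COL4A1, COL4A2, COL4A5, COL4A6, COL5A1, COL7A1, COL16A1, COL18A1 and COL27A1, miR-424 replicate 3 is the lowest of its group.

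Genes of a collagen IV pair are read in opposite directions from neighbouring starts. The nearest RefSeq starts were 127 bases apart for COL4A1 and COL4A2 on chromosome 13 and 380 bases apart for COL4A5 and COL4A6 on chromosome X (GRCh38.p14), and a second listed start of COL4A6 lay 1416 bases from that of COL4A5. The windows of 300 bases around the starts of COL4A1 (minus strand, chr13:110307108-110307407) and COL4A5 (plus strand, chrX:108439588-108439887) are shown because the members of each pair lay on the same side of EV. Capitals mark GGGCGG and its reverse complement CCGCCC, the GC box bound by Sp1, and CCAAT and its reverse complement ATTGG, the CCAAT box.
COL4A1: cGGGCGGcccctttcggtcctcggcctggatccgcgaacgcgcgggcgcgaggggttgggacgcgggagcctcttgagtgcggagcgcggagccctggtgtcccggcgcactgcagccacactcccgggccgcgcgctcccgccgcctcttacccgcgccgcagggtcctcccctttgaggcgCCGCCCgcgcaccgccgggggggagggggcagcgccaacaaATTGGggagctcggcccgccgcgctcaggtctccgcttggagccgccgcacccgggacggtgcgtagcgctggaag
COL4A5: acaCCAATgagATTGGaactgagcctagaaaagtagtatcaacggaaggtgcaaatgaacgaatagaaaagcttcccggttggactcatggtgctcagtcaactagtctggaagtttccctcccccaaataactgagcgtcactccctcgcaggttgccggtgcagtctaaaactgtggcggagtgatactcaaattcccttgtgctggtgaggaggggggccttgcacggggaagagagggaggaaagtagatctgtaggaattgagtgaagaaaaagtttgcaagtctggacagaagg
The first window held 2 GC boxes and 1 CCAAT box in 76.7% GC, and the second held 0 GC boxes and 2 CCAAT boxes in 49.3% GC. A GC box is present in 45.0% and a CCAAT box in 34.6% of all 35116 RefSeq windows of this kind, so that both are common. TATAAA or its reverse complement, found in 11.5% of windows, was in neither. These are matches of letters and were not tested for binding. Of the 43 collagens 31 had an entry in this table.

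The ratio of the chains within a library does not depend on the scaling between libraries. GC content of the longest annotated transcripts differed between chains (COL4A1 55.4%, COL4A2 62%, COL6A3 53.2%, COL6A1 63.5%). Its part in the ratios was not tested. COL4A1 was at 0.444, 0.441 and 0.440 of COL4A2 in EV replicates 1, 2 and 3 and at 0.493, 0.501 and 0.478 in miR-424 replicates 1, 2 and 3. The groups did not overlap, and replicate 3 of the miR-424 group lay between the EV libraries and its companions. With 3 against 3 libraries an exact permutation test cannot give a p below 0.1, which is what it gave here (two-sided; adjusted p = 0.24 over the 6 ratios compared). COL4A5/COL4A6 was 1.02 ± 0.0382 in EV and 1.13 ± 0.0675 in miR-424 cells, with overlapping groups (exact permutation p = 0.2). COL6A3/COL6A1 was 0.0316, 0.0342 and 0.0378 in EV replicates 1, 2 and 3 and 0.0553, 0.0546 and 0.0532 in miR-424 replicates 1, 2 and 3, without overlap (exact permutation p = 0.1), while COL6A1/COL6A2 was 0.981 ± 0.00887 in EV and 0.934 ± 0.0342 in miR-424 cells, with overlap (exact permutation p = 0.2). COL5A1/COL5A2 gave an exact permutation p of 0.7, and COL1A1/COL1A2, in which the denominator is near 0, of 0.2.

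**Figure D4:**
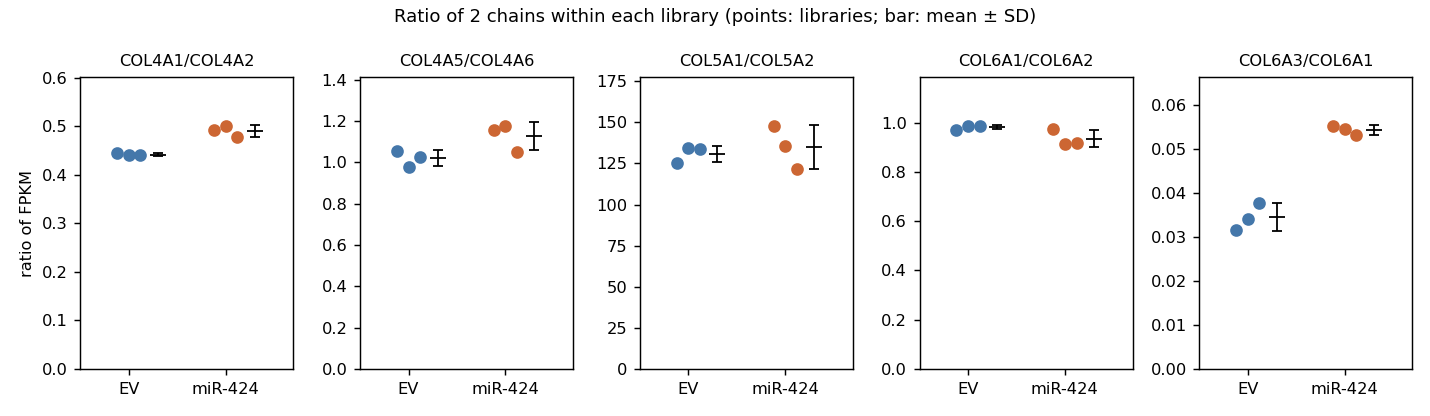
Ratio of FPKM of 2 chains of a collagen type within each library, 5 pairs, for EV and miR-424 cells (points, libraries; bars, mean ± SD). The groups do not overlap for COL4A1/COL4A2 and COL6A3/COL6A1 and overlap for the other 3 pairs.

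Among the fibrillar collagens COL1A1 rose by a small amount. It was at 40.7, 38.5 and 37.9 FPKM in EV replicates 1, 2 and 3 and at 46.9, 43.6 and 45.05 FPKM in miR-424 replicates 1, 2 and 3, without overlap (log2 change 0.21 ± 0.05, SE; limma BH adjusted p = 0.0456). Its call ended without EV replicate 1, 2 or 3 or miR-424 replicate 1 or 2 (limma BH adjusted p = 0.111, 0.202, 0.196, 0.138 and 0.0746), without a filter on low values (0.0545) and with a constant prior variance (0.0521), in a range of 0.00127 to 0.202. COL5A1, which sets the diameter of collagen I fibres, was at 74.8, 71.2 and 70.0 in EV and at 82.2, 80.4 and 60.2 FPKM in miR-424 replicates 1, 2 and 3. Replicates 1 and 2 of the miR-424 group lay above all EV libraries and replicate 3 lay below them, and the gene did not pass (log2 change 0.03, 95% interval -0.25 to 0.31; adjusted p = 0.914). Without miR-424 replicate 3 the change was 0.17 (limma BH adjusted p = 0.00541, in a range of 0.000728 to 0.983), and without replicate 1 or 2 it was -0.05 and -0.03. COL27A1 was at 1.31 to 1.53 in EV and 1.07 to 1.37 FPKM in miR-424 libraries and did not pass (log2 change -0.11, 95% interval -0.27 to 0.06).

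Of the beaded filament collagens COL6A3, the longest chain of collagen VI, rose, and its partners did not pass. COL6A3 was tested only through its miR-424 libraries, since its EV mean was under 1 FPKM, so its call is not independent of that minimum. Without a filter on low values its limma BH adjusted p was 0.0153. COL6A3 was at 0.819, 0.834 and 0.937 FPKM in EV replicates 1, 2 and 3 and at 1.41, 1.31 and 1.34 FPKM in miR-424 replicates 1, 2 and 3. The ratio of means was 1.56, and the log2 change of 0.33 ± 0.05 (SE; limma BH adjusted p = 0.0112) understates it because the level is near the pseudocount. With a pseudocount of 0.1 the change was 0.59, and the call ended without EV replicate 1, 2 or 3 (limma BH adjusted p = 0.0703, 0.0773 and 0.0509, in a range of 0.00286 to 0.0773). COL6A1 lay between 23.9 and 25.9 FPKM and COL6A2 between 24.8 and 27.4 FPKM in all 6 libraries, with groups that overlapped. Their log2 changes were -0.01 (95% interval -0.12 to 0.09) and 0.06 (-0.05 to 0.16), so that a change of either by 0.2 on this scale lies outside the interval at the scaling as deposited. COL6A1 had a change of 0.04 with median-of-ratios scaling and of 0.09 with the GC trend removed and miR-424 replicate 3 left out (limma BH adjusted p = 0.690 and 0.0482, in a range of 0.0482 to 0.947). With the GC trend removed COL6A2 passed (log2 change 0.17, limma BH adjusted p = 0.0183, in a range of 0.00571 to 0.838).

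COL7A1, which forms the anchoring fibrils that tie the basement membrane to the tissue below, was the other collagen that fell beside COL4A6. Its locus, listed as COL7A1/MIR711, was at 17.35, 16.1 and 16.9 FPKM in EV replicates 1, 2 and 3 and at 13.75, 13.4 and 11.3 FPKM in miR-424 replicates 1, 2 and 3, without overlap. Its log2 change was -0.37 ± 0.08 (SE; limma BH adjusted p = 0.0347). The call ended without EV replicate 1, 2 or 3 or miR-424 replicate 1 or 2 (limma BH adjusted p = 0.158, 0.113, 0.148, 0.0601 and 0.0684), without a filter on low values (0.0564) and with the GC trend removed (0.0849), in a range of 0.00148 to 0.158. With the GC trend removed and miR-424 replicate 3 left out, the change was -0.16. COL17A1, the transmembrane collagen of hemidesmosomes, was at 0.385 to 0.649 in EV and 0.424 to 0.579 FPKM in miR-424 libraries, under the minimum. COL18A1, the source of endostatin, lay between 17.8 and 18.8 in EV and between 14.9 and 17.9 FPKM in miR-424 libraries and did not pass (log2 change -0.13, 95% interval -0.30 to 0.05). With the GC trend removed and miR-424 replicate 3 left out its change was 0.09 (limma BH adjusted p = 0.0302, in a range of 0.0302 to 0.959).

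**Figure D5:**
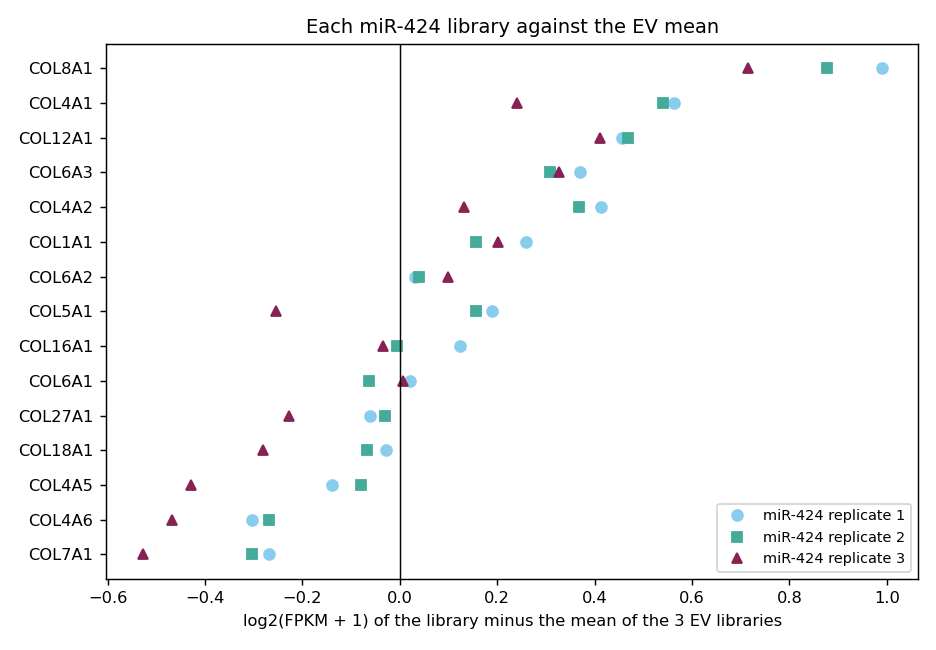
Difference of each miR-424 library from the mean of the 3 EV libraries on log2(FPKM + 1) for the 15 tested collagens. Replicate 3 (triangles) lies left of the mean of replicates 1 and 2 in 13 of 15 genes, and for COL5A1 it lies on the other side of 0.

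The summed collagen FPKM followed the abundant chains. It was 410, 390 and 391 FPKM in EV replicates 1, 2 and 3 and 478, 466 and 410 FPKM in miR-424 replicates 1, 2 and 3, so that replicate 3 lay among the EV values. The sum over collagen IV was 146 ± 4.51 in EV and 177 ± 19.2 FPKM with miR-424. The sum over fibril-associated collagens, nearly all COL12A1, was 45.7 ± 0.645 and 61.4 ± 1.399 FPKM, and that over beaded filament collagens 51.6 ± 1.84 and 52.9 ± 1.204 FPKM (SD, n = 3).

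The 28 collagens under 1 FPKM were not tested by the main rule. Of the 26 with any value above 0, the groups did not overlap for 2 that were higher in miR-424 cells (COL10A1 and COL14A1) and for 4 that were lower (COL8A2, COL9A2, COL9A3 and COL21A1), where 3.32% and 13.5% of all loci in this range were. COL9A3, a chain of cartilage collagen IX, was at 0.584, 0.650 and 0.568 FPKM in EV replicates 1, 2 and 3 and at 0.309, 0.305 and 0.258 FPKM in miR-424 replicates 1, 2 and 3. COL14A1, a fibril-associated collagen, was at 0.159, 0.142 and 0.111 in EV and at 0.254, 0.221 and 0.255 FPKM in miR-424 libraries. Without a filter on low values these were the only 2 of the 28 that passed (limma BH adjusted p = 0.00878 and 0.0316). Of all loci in that fit 0.786% were called higher and 3.87% lower. The rows of COL9A3 and COL10A1 have the same listed intervals as TCFL5 (10.9 FPKM) and NT5DC1 (9.94 FPKM), and the sources used here do not say whether strand was used, and the part of these neighbours in the low values was not tested.

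The genes that fold, process, bind and cut collagen were read in the same fit. Collagen chains are hydroxylated and folded in the endoplasmic reticulum, trimmed by propeptidases and crosslinked outside the cell. Of 22 folding and modifying genes 21 were tested, 0 rose and 1 fell, the prolyl 3-hydroxylase gene P3H2 (listed as LEPREL1), from 7.745 ± 0.338 to 6.41 ± 0.303 FPKM (log2 change -0.24, limma BH adjusted p = 0.0420). Of all tested loci 1.24% rose and 6.32% fell by the same rule. At an unadjusted p under 0.05 (limma), 4 of the folding and modifying genes were higher and 4 lower, and 4.29% and 19.3% of all tested loci were. P3H2 did not pass with median-of-ratios scaling, with quantile normalization, without a filter on low values or when any 1 library was left out except miR-424 replicate 3 (limma BH adjusted p = 0.0512, 0.0589, 0.0628 and 0.0810 to 0.190, in a range of 0.00791 to 0.190). Without that library 7 of the 21 genes were higher and 5 lower, where 14.9% and 22.2% of all tested loci were. The 2 most abundant were P4HB, the beta subunit of prolyl 4-hydroxylase (343 ± 4.96 and 334 ± 4.25 FPKM), and the isomerase gene PPIB (193.5 ± 5.05 and 197 ± 8.86 FPKM), neither of which passed. PLOD2, which hydroxylates lysines of the telopeptides, was named after its values were seen: it was at 143, 139 and 136 in EV and at 209, 216 and 144 FPKM in miR-424 replicates 1, 2 and 3, so that replicate 3 was close to EV, and it did not pass (limma BH adjusted p = 0.144).

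Of 14 genes of propeptide removal and crosslinking 8 were tested, 1 rose and 0 fell, where 1.24% of all tested loci rose and 6.32% fell. At an unadjusted p under 0.05 (limma), 2 were higher and 2 lower, where 4.29% and 19.3% of all tested loci were. TGM2, which encodes transglutaminase 2, was at 83.6, 82.9 and 79.9 FPKM in EV replicates 1, 2 and 3 and at 120, 117 and 127 FPKM in miR-424 replicates 1, 2 and 3 (log2 change 0.55 ± 0.04, SE; limma BH adjusted p = 0.00214), and it passed in every alternative run. LOX, the lysyl oxidase that crosslinks fibres, did not pass, with 52.6 to 57.0 in EV and 62.0, 63.0 and 45.6 FPKM in miR-424 replicates 1, 2 and 3. Without miR-424 replicate 3 its change was 0.18 (limma BH adjusted p = 0.00751, in a range of 0.00751 to 0.994), and without EV replicate 3 or miR-424 replicate 1 or 2 it was -0.004, -0.04 and -0.05. In this list 3 genes were higher without miR-424 replicate 3, where 14.9% of all tested loci were.

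Of 12 collagen receptors 7 were tested, 0 rose and 1 fell, where 1.24% of all tested loci rose and 6.32% fell. At an unadjusted p under 0.05 (limma), 1 was higher and 2 were lower, where 4.29% and 19.3% of all tested loci were. DDR1, a receptor tyrosine kinase that binds collagen, was at 12.7, 12.1 and 12.3 FPKM in EV replicates 1, 2 and 3 and at 9.04, 9.30 and 9.71 FPKM in miR-424 replicates 1, 2 and 3 (log2 change -0.37, limma BH adjusted p = 0.00728). Its call ended without EV replicate 1, 2 or 3 (limma BH adjusted p = 0.0581, 0.0531 and 0.0556, in a range of 0.000292 to 0.0581). ITGB1, the integrin beta chain of collagen receptors, was at 318 to 330 in EV and at 363, 364 and 307.5 FPKM in miR-424 replicates 1, 2 and 3, and MRC2, an endocytic collagen receptor, at 20.1 to 21.1 and 21.65 to 22.9 FPKM. Neither passed, and without miR-424 replicate 3 both did (limma BH adjusted p = 0.00139 and 0.0126, in ranges of 0.00139 to 0.780 and 0.000695 to 0.433), so that 3 receptors were then higher. Of all tested loci 14.9% were higher without that library. Of 8 genes of collagen cleavage 3 were tested and 2 rose, where 1.24% of all tested loci rose. These were MMP2 (66.5 ± 1.15 to 78.1 ± 2.44 FPKM) and MMP14, the membrane collagenase that activates MMP2 (123 ± 0.983 to 140.5 ± 5.41 FPKM). Their log2 changes were 0.23 and 0.18 (limma BH adjusted p = 0.0197 and 0.0387). Both calls ended without EV replicate 1, 2 or 3 or miR-424 replicate 1 (limma BH adjusted p = 0.102, 0.119, 0.102 and 0.0716 for MMP2 and 0.176, 0.170, 0.164 and 0.107 for MMP14), and that of MMP14 without miR-424 replicate 2 (0.0638) and with median-of-ratios scaling, quantile normalization or a constant prior variance (0.0672, 0.0530 and 0.0511), in ranges of 0.000314 to 0.119 for MMP2 and 0.000369 to 0.176 for MMP14. The interstitial collagenase genes MMP1, MMP8 and MMP13 did not exceed 0.0371 FPKM, and MMP13 was listed at 0. Of 8 fibril-associated proteoglycans only decorin (DCN) was tested, at 118 to 125 in EV and 118 to 138 FPKM in miR-424 libraries, and it did not pass (limma BH adjusted p = 0.347, and 0.00426 without miR-424 replicate 3, in a range of 0.00426 to 0.636).

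The cells were checked against markers of mammary epithelium and of other cell types. Of 8 basal markers 7 had a mean of at least 1 FPKM, with KRT5 at 63.7 ± 2.27 in EV and 40.7 ± 3.22 FPKM with miR-424 and TP63 under 1 FPKM. The luminal and junctional keratins KRT8 and KRT18 were at 162 and 86.5 FPKM on average and EPCAM at 2.72 FPKM, whereas E-cadherin (CDH1) was at 0.0206 FPKM. The 8 luminal and junctional markers, 4 of them under 1 FPKM, summed to 253 to 263 FPKM in EV and 243 to 264 FPKM in miR-424 libraries. All 6 endothelial markers were under 1 FPKM, with sums of 0.358 to 0.389 and 0.304 to 0.374 FPKM. Of 6 leukocyte markers only LYZ exceeded 1 FPKM (1.203 on average), and the sums were 1.67 to 1.87 and 1.38 to 1.67 FPKM. Fibroblast markers were split: PDGFRA, PDGFRB, LUM, THY1, POSTN, TCF21 and DPT were under 1 FPKM, while FBLN1 was at 202, DCN at 125 and FAP at 13.6 FPKM on average. The summed level of the 10 fibroblast markers was 332 to 348 in EV and 339 to 351 FPKM in miR-424 libraries, and that of the 8 basal markers 150 to 155.5 FPKM and 141.5 to 145 FPKM. In RNA from whole cultures, fewer cells of a kind and less RNA per cell cannot be told apart, and the part of cell composition in the collagen values was not tested.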

How the data were processed

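RNA of 3 EV and 3 miR-424 cultures was sequenced, and 1 table of FPKM per locus was deposited by the authors on hg19. TopHat 1.4.1, Cufflinks 1.3.0 and Cuffdiff are named in the submitters' processing notes. The sources used here give no fragment counts, depth per library or use of strand, and the FPKM of a library summed to 409776 to 424564. From these values log2(FPKM + 1) was computed and fitted with limma 3.58.1 (R 4.3.3, trended prior, two-sided, no covariate) over 11574 loci (mean FPKM of 1 or more), and p-values were adjusted by Benjamini-Hochberg over all of them at 0.05. On this scale changes of low genes are understated. Chain ratios were compared with exact permutation tests. Every tested collagen was named, and of each related list the members past the threshold and the 2 of highest mean. The members and lists were chosen with earlier results of these data known. GC content and 3′ UTRs came from GENCODE 29 (11407 tested loci matched), and miRNA and promoter sequences from RefSeq. Alternatives were another pseudocount, other filters, scalings and priors, a replicate block, removal of the GC trend and leaving out each library. Removing the GC trend and miR-424 replicate 3 together was chosen after seeing the data. A further marker gene and a further UTR sequence are not reported here.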

Additional observations from a re-analysis of the deposited data

How the results depend on the processing

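The 7 collagens called became 2 without EV replicate 1, 2 or 3 and ranged from 2 to 10 over the libraries left out (2 to 7 higher and 0 to 3 lower). With the GC trend removed and miR-424 replicate 3 left out they became 12, of which 10 were higher. Of all tested loci 14.5% were then higher and 15% lower. With the GC trend removed 7 collagens were higher and 1 lower, where 5.85% and 7.21% of all tested loci were. COL8A1, COL12A1 and TGM2 passed in all 15 alternatives. Over the tested collagens, 172 alternative values kept direction and call, 29 lost the call, 12 gained it and 11 changed sign, 2 of which also gained the call.

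The labels do not say that a replicate number marks a shared batch or day. Same-numbered libraries correlated in their deviations at 0.0509, 0.152 and 0.127, and EV replicate 1 correlated more with miR-424 replicate 2 (0.0613). With the replicate block 5 collagens were called, 4 higher and 1 lower, against 349 of all loci (79 higher, 270 lower); 0 folding and 0 cleavage genes were then called. The block ended the calls of COL1A1, COL7A1, P3H2, MMP2 and MMP14 (limma adjusted p = 0.0778, 0.0671, 0.104, 0.0604 and 0.101).

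Of all loci 875 were called (144 higher, 731 lower). The count was 575 at a mean of at least 5 FPKM (468 lower), 1512 with the GC trend removed (677 higher) and 3407 with miR-424 replicate 3 also left out (1674 higher, 1733 lower). Leaving out 1 library gave 110 to 4302 (higher, 31 to 1728; lower, 77 to 2574). With median-of-ratios scaling 308 loci were higher and 495 lower, and with quantile normalization 313 and 449.

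Of the folding genes, 1 was higher and 0 lower under either scaling, 0 were lower without a filter, 7 were higher with the GC trend removed, and 10 were higher and 3 lower with miR-424 replicate 3 also left out; leaving out 1 library gave 0 to 7 higher and 0 to 5 lower. Of the crosslinking genes, 2 were higher with quantile normalization or the GC trend removed, 4 with replicate 3 also left out, 1 to 3 over the libraries left out, and 1 was lower without a filter. Of the receptors, 1 was higher under either scaling, 2 with the GC trend removed, 3 with replicate 3 also left out and 0 to 3 over the libraries left out, while 0 to 1 were lower. Of the cleavage genes, 1 was higher under either scaling and with a constant prior, and 0 to 2 over the libraries left out. Of the proteoglycans, 1 was higher and 1 lower without a filter, 0 to 1 were higher over the libraries left out and 1 with the GC trend also removed. Of all loci in each fit, 2.66% were higher and 4.28% lower with median-of-ratios scaling and 2.7% and 3.88% with quantile normalization. Without a filter the shares were 0.786% and 3.87%, with a constant prior 1.29% and 6.51%, and with the GC trend removed 5.85% and 7.21%. With replicate 3 also left out they were 14.5% and 15%. Leaving out 1 library gave 0.268% to 14.9% higher and 0.665% to 22.2% lower.

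Signs changed for values near 0. Over the libraries left out, the log2 change ranged from -0.0486 to 0.173 for COL5A1, -0.0294 to 0.0133 for COL6A1, -0.0204 to 0.0588 for COL16A1, -0.0107 to 0.0466 for PPIB and -0.0509 to 0.178 for LOX. COL6A1 was at 0.0430 with median-of-ratios scaling, 0.0302 with quantile normalization and 0.0816 with the GC trend removed, and P4HB at 0.0189 with median-of-ratios scaling and 0.0338 with the GC trend removed. With miR-424 replicate 3 also left out, COL6A1 was at 0.0907, COL18A1 at 0.0940, COL27A1 at 0.0490 and P4HB at 0.0316. The cause was not tested for these values; leaving out a library also leaves fewer samples. Depth is unknown, so no limit of detection could be set.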
